A study of Triticum aestivum with 6 samples.

Results

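Nitrate reductase genes of bread wheat (Triticum aestivum) were taken as every gene of the deposited table whose best UniProt match carries a protein name with the words nitrate reductase. The search found 9 genes among 83219, and all 9 carried the name Nitrate reductase [NADH] 1. The libraries came from roots of wild-type JW1 seedlings. The 2N group (3 libraries) received 2 mM of the potassium nitrate salt, which the labels write as KNO, for 3 hours, and the 0N group (3 libraries) received 2 mM KCl for the same 3 hours. Before this, seedlings of both groups germinated for 3 days, had the endosperm removed, grew for 3 days with 2 mM nitrate and then spent 2 days without nitrogen. The culture medium of both groups held molybdate at 0.05 µM. Nitrate and chloride changed together between the groups, so their effects cannot be told apart. No label gives the age at harvest in one number or says whether plants were pooled or replicates came from separate cultures, so p-values measure the spread between these libraries, which may be technical.

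Nitrate reductase catalyses the first step of nitrate assimilation, the reduction of nitrate to nitrite in the cytosol with electrons from NADH. Each subunit carries a molybdenum cofactor, a haem and a flavin, and the enzyme works as a dimer. In many plants its genes are switched on by nitrate within hours, and the protein is held back by phosphorylation followed by binding of a 14-3-3 protein. Bread wheat is hexaploid, so a gene is commonly present as homoeologous copies on the A, B and D subgenomes.

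The chromosome code inside the gene identifiers placed 6 of the 9 genes on chromosomes 6A, 6B and 6D, with 2 on each. TraesCS6A02G017500, TraesCS6B02G024900 and TraesCS6D02G020700 carried low numbers and are called the low-numbered trio. TraesCS6A02G326200, TraesCS6B02G356800 and TraesCS6D02G306000 are called the high-numbered trio. Every gene of the low-numbered trio matched the tobacco entry NIA1_TOBAC, the 6A copy together with the Arabidopsis entry NIA1_ARATH, and every gene of the high-numbered trio matched NIA1_ARATH. TraesCS7A02G078500 and TraesCS7D02G073700 matched NIA1_TOBAC, and TraesCS4A02G376700 matched the rice entry NIA1_ORYSJ. These matches stand for similarity to a protein of another species, and 0 genes matched an entry for the NAD(P)H type of the enzyme. Copies were put into trios by identifier and best match, not by sequence alignment. Coordinates and sequences of the genes were not used here, since the RefSeq gene table at hand held 0 of the identifiers.

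Library totals were 17234970 to 17645686 expected counts in 2N and 16208512 to 16426366 in 0N. Levels are given in TPM, a transcript level corrected for gene length and library size, so that genes can be compared. The tissue label was checked because another label of the same samples names leaf tissue. Casparian strip membrane proteins, which mark the root endodermis, summed to 194 to 247 TPM in 2N and 145 to 175 TPM in 0N over 7 genes. Of the 6 tested, 4 rose by edgeR. As first defined, the root list also held root hair defective proteins. Over its 12 tested genes 4 rose and 0 fell, while 7.57% of all tested genes rose. Chlorophyll-binding proteins and Rubisco small subunits, which mark leaves, summed to 83.7 to 162 TPM in 2N and 163 to 382 TPM in 0N over 86 genes. Of these, 17 were at 0 in every library. By edgeR 18 of the 44 tested genes fell and 0 rose, while 7.93% of all tested genes fell. At an unadjusted p under 0.05 by edgeR, 30 were lower and 0 higher, and DESeq2 called 22 falls and 0 rises. The edgeR falls numbered 6 without 2N-1, 5 without 2N-3, 8 without 0N-1, 28 without 0N-2 and 9 without 0N-3. The most abundant gene of the 86, the Rubisco small subunit gene TraesCS5D02G169900, did not pass (adjusted p = 0.382 by edgeR) and averaged 16.3 ± 7.21 TPM in 2N and 31.9 ± 14.9 TPM in 0N (SD, n = 3 each). The part of these marker levels in the results for nitrate reductase was not tested. In whole roots, a change in the share of a cell type and a change in RNA per cell cannot be told apart.

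With nitrate, 8 nitrate reductase genes rose, which was every member that could be tested. Summed over the 9 genes, the level was 479, 579.9 and 548 TPM in the 2N libraries, against 96.2, 78.1 and 85.6 TPM in the 0N libraries. The mean sum was 536 ± 51.7 TPM in 2N and 86.6 ± 9.08 TPM in 0N (SD, n = 3 each), a 6.18-fold difference. The A copies, which were the least abundant of their trios in 0N, had the largest log2 fold changes of both trios. Among all tested genes, 7.57% rose by the same test (edgeR's quasi-likelihood test, 2-sided, Benjamini-Hochberg adjusted p below 0.05). TraesCS7A02G078500 and TraesCS7D02G073700 had under 10 counts in every 0N library and passed the filter on low counts through 2N alone. Only the 6 genes on 6A, 6B and 6D, which all rose, can therefore be set against that share. These 6 all rose by 2 or more on the log2 scale, as did 0.56% of all tested genes. TPM in every 2N library lay above every 0N library for all 6 as well, and for 10.1% of all tested genes. The same held for TraesCS7A02G078500 and TraesCS7D02G073700, but not for the untested TraesCS4A02G376700. The log2 fold changes (2N over 0N) of the 6 ran from 2.20 to 4.51, and the median over all tested genes was 0.00. Over the 8 tested members, TraesCS7A02G078500 and TraesCS7D02G073700 among them, the median was 3.04. In the order of log2 fold changes over 54313 tested genes, the members took places 53 to 251. Those on 6A, 6B and 6D took places 57 to 251.

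**Figure D1:**
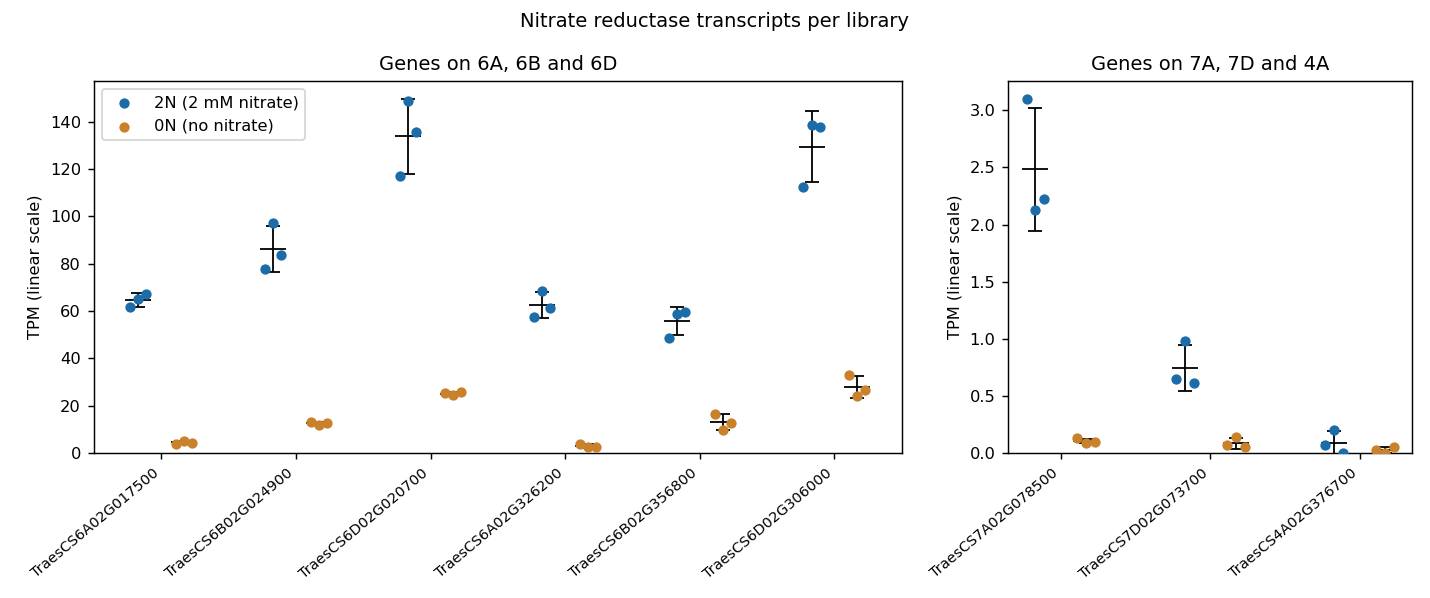
TPM of each of the 9 nitrate reductase genes in the 3 2N libraries (blue, left) and the 3 0N libraries (orange, right), on linear axes that differ between the panels; points are libraries, and black bars give the mean ± SD. Blue points lie above orange points for every gene except TraesCS4A02G376700, and the 6D copies are the most abundant in both groups.

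The low-numbered trio is described first. TraesCS6D02G020700 stood at 116.85, 148.74 and 135.56 TPM in 2N and at 25.41, 24.45 and 25.69 TPM in 0N. Its lowest 2N library was 4.55 times its highest 0N library, and the log2 fold change was 2.52 ± 0.11 (SE, adjusted p = 1e-09 by edgeR). TraesCS6B02G024900 had 77.79, 97.02 and 83.83 TPM in 2N, against 13.07, 11.81 and 12.92 TPM in 0N. Here too the groups were well apart, with a log2 fold change of 2.88 ± 0.11 (adjusted p = 2e-10 by edgeR). TraesCS6A02G017500 had 61.67, 65.28 and 67.36 TPM in 2N, against 3.98, 5.15 and 4.44 TPM in 0N. Its lowest 2N library was 12.0 times its highest 0N library, and the log2 fold change was 3.94 ± 0.12 (adjusted p = 3.55e-11 by edgeR). The 0N levels of the 6B and 6D copies were tight, with SDs of 0.688 and 0.65 TPM around means of 12.6 and 25.2 TPM (n = 3).

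The high-numbered trio had the same order of subgenomes in 0N, with D above B above A. TraesCS6D02G306000 stood at 112.3, 138.58 and 137.52 TPM in 2N and at 33.11, 24.22 and 26.85 TPM in 0N (log2 fold change 2.32 ± 0.12, adjusted p = 1.03e-08 by edgeR). It was the most abundant member in 0N. TraesCS6B02G356800 had 48.84, 58.65 and 59.55 TPM in 2N, against 16.56, 9.75 and 12.91 TPM in 0N. Its groups were the least separated of the 6 genes on chromosomes 6A, 6B and 6D, the lowest 2N library being 2.95 times the highest 0N library, and its log2 fold change of 2.20 ± 0.16 was the smallest of the 8 (adjusted p = 3.6e-06 by edgeR). TraesCS6A02G326200 had 57.55, 68.34 and 61.23 TPM in 2N, against 3.84, 2.52 and 2.55 TPM in 0N. Its groups were the furthest apart of the 6 genes, and the log2 fold change was 4.51 ± 0.15 (adjusted p = 9.4e-11 by edgeR).

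The genes on 7A, 7D and 4A were scarce in both groups. Together they made up 0.628% ± 0.149 of the summed nitrate reductase TPM in 2N and 0.256% ± 0.0336 in 0N (SD, n = 3 each). TraesCS7A02G078500 had 137, 96.26 and 98 expected counts in 2N, against 5.08, 3.98 and 4 in 0N, or 2.48 ± 0.536 TPM in 2N and 0.107 ± 0.0208 TPM in 0N. Its log2 fold change was 4.63 ± 0.28 (adjusted p = 6.32e-08 by edgeR), within the SE of that of TraesCS6A02G326200, although its level stayed far below the genes on 6A, 6B and 6D. On counting error alone, the ratio of its summed counts per depth was 25.5 with a 95% interval of 14.7 to 48.4 (exact Clopper-Pearson). TraesCS7D02G073700 had 30, 45.75 and 28 counts in 2N, against 3, 6 and 2 in 0N. It also rose (log2 fold change 3.20 ± 0.40, adjusted p = 6.87e-05 by edgeR), with a count ratio of 9.47 and an interval of 5.08 to 19.6. TraesCS4A02G376700 had 3, 8.99 and 0 counts in 2N, against 1, 0 and 2 in 0N, and its groups overlapped. It did not pass the filter on low counts and was not tested. Its count ratio was 4.01 with an interval of 1.08 to 22.1, which covers counting error only and takes no account of the spread between libraries. In the library 0N-2, where it had no count, the limit that a count of 0 allows (3 counts) was 0.18 CPM (counts scaled to library size), and in 2N-3 it was 0.181 CPM.

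**Figure D2:**
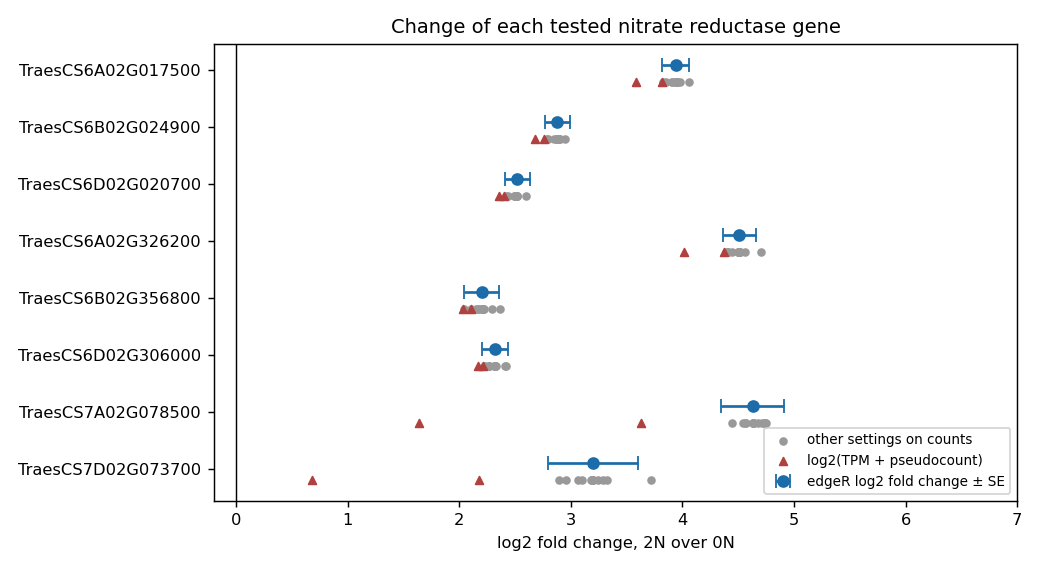
Log2 fold change (2N over 0N) of the 8 tested nitrate reductase genes, with the edgeR value ± SE in blue, the other settings on counts in grey and the log2(TPM + pseudocount) settings as red triangles. Every point lies right of 0, from 0.68 for TraesCS7D02G073700 with a pseudocount of 1 to 4.75 for TraesCS7A02G078500.

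The order of levels differed in part between the groups. In 2N, the 6D copies led with 134 and 129 TPM, and their ranges overlapped. TraesCS6B02G024900 followed at 86.2 TPM, apart from its neighbours in the order on both sides. Next came TraesCS6A02G017500 at 64.8 TPM, TraesCS6A02G326200 at 62.4 TPM and TraesCS6B02G356800 at 55.7 TPM, whose neighbouring ranges overlapped. In 0N, both 6D copies also led, at 28.1 TPM for TraesCS6D02G306000 and 25.2 TPM for TraesCS6D02G020700, with overlapping ranges. Both 6B copies followed at 13.1 and 12.6 TPM, again overlapping. The 6A copies came last of the 6, at 4.52 TPM for TraesCS6A02G017500 and 2.97 TPM for TraesCS6A02G326200, and here the ranges did not overlap. In 2N both 6A copies thus exceeded the 6B copy of the high-numbered trio in every library, whereas in 0N they were below both 6B copies in every library.

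Within each trio, the share of the A copy was larger in 2N. In the low-numbered trio, the A copy held 24.1%, 21.0% and 23.5% of the trio's TPM in 2N, against 9.37%, 12.4% and 10.3% in 0N. The share of its D copy was 46.9% ± 1.16 in 2N and 59.5% ± 0.422 in 0N (SD, n = 3 each), while its B copy held 30.3% ± 0.982 in 2N and 29.8% ± 1.15 in 0N, with overlapping ranges. In the high-numbered trio, the A copy held 26.3%, 25.7% and 23.7% in 2N, against 7.18%, 6.91% and 6.03% in 0N. There the D copy held 52.3% ± 0.947 in 2N and 63.9% ± 2.28 in 0N, and the B copy 22.5% ± 0.504 in 2N and 29.4% ± 2.33 in 0N. The D copy remained the largest contributor to both trios in all 6 libraries. Of the rise in summed TPM, the 6D copies accounted for 24.2% and 22.6%, the 6A copies for 13.4% and 13.2%, and the 6B copies for 16.4% and 9.49%.

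**Figure D3:**
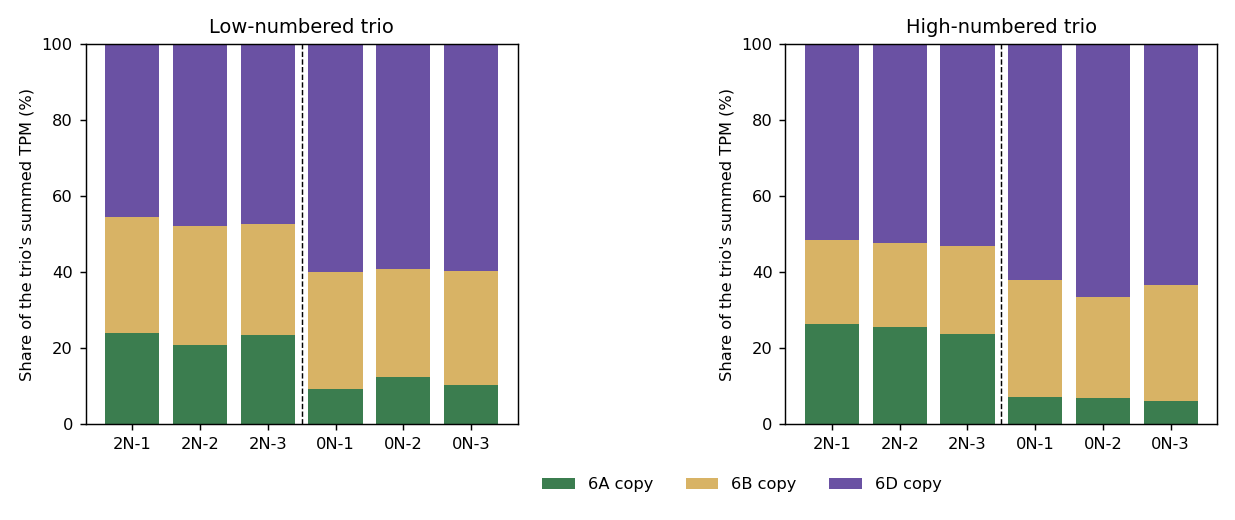
Share of each trio's summed TPM held by its 6A, 6B and 6D copies in every library, with the 2N libraries left of the dashed line and the 0N libraries right of it. The 6A share is 21.0% to 26.3% in the 2N libraries of both trios and 6.03% to 12.4% in the 0N libraries.

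Whether copies of a trio responded unequally was tested on their ratio within each library, which does not depend on depth. The log2 TPM ratio of TraesCS6A02G326200 to TraesCS6B02G356800 was 0.24, 0.22 and 0.04 in 2N, against -2.11, -1.95 and -2.34 in 0N. The A copy was thus slightly above the B copy in every 2N library and far below it in every 0N library. Its ratio to TraesCS6D02G306000 was -0.96, -1.02 and -1.17 in 2N, against -3.11, -3.26 and -3.40 in 0N. For TraesCS6A02G017500, the mean log2 ratio to its D copy was -1.04 ± 0.14 in 2N and -2.48 ± 0.22 in 0N, and that to its B copy was -0.41 ± 0.14 in 2N and -1.48 ± 0.26 in 0N (SD, n = 3 each). The B copy of the low-numbered trio stood at -0.59, -0.62 and -0.69 relative to its D copy in 2N, against -0.96, -1.05 and -0.99 in 0N, so these groups were close but did not overlap. In the high-numbered trio the groups overlapped for this ratio, at -1.22 ± 0.02 in 2N and -1.12 ± 0.17 in 0N.

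Over the 7 pairs compared, the 2N and 0N ratios did not overlap for 6. For each of these the 2-sided exact permutation p was 0.1, the smallest that 3 against 3 libraries can give, and 0.117 after Benjamini-Hochberg adjustment over the 7 pairs. The ratios within a trio are not independent, since each follows from the others. A fit that pools the spread over many pairs was added after the data were seen. It took 18121 pairs of subgenome copies from the whole table, those with the same best match, the same chromosome group and a single tested gene on each subgenome, together with the 7 pairs of members. By limma on log2 CPM ratios, 4.56% of these pairs differed between 2N and 0N, and in 19.5% the groups did not overlap. The ratio of TraesCS6A02G326200 was higher in 2N by 2.29 against its B copy (95% interval 2.11 to 2.46, log2 scale) and by 2.19 against its D copy (2.03 to 2.35), each with a limma adjusted p of 3.43e-21. These were the 5th and 8th largest differences of the 18121. For TraesCS6A02G017500 the difference was 1.43 against the D copy (1.26 to 1.61, limma adjusted p = 8.11e-13) and 1.07 against the B copy (0.85 to 1.29, limma adjusted p = 3.09e-06). The B copy of this trio rose more than its D copy by 0.37 (0.26 to 0.47, limma adjusted p = 6.17e-06). Between TraesCS6B02G356800 and TraesCS6D02G306000 the difference was -0.10 (-0.23 to 0.04, limma adjusted p = 0.541). Over all A to D pairs the median difference was -0.01, with 144 higher and 140 lower in 2N by limma.

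The ratio of TraesCS7A02G078500 to TraesCS7D02G073700 rested on few counts. It was higher in 2N by 1.41 (0.59 to 2.23, limma adjusted p = 0.0339), but this call was lost when single libraries were left out. Leaving out 2N-1 gave a limma adjusted p of 0.186 and leaving out 2N-3 gave 0.129, while omitting 0N-1 or 0N-2 gave 0.0573 or 0.222. All 6 counts of each gene on 6A, 6B and 6D were not whole numbers, whereas TraesCS7D02G073700 had 5 whole counts of 6 and TraesCS7A02G078500 had 3. The division of reads between similar copies is therefore uncertain for the trios, and its part in the ratios was not tested.

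**Figure D4:**
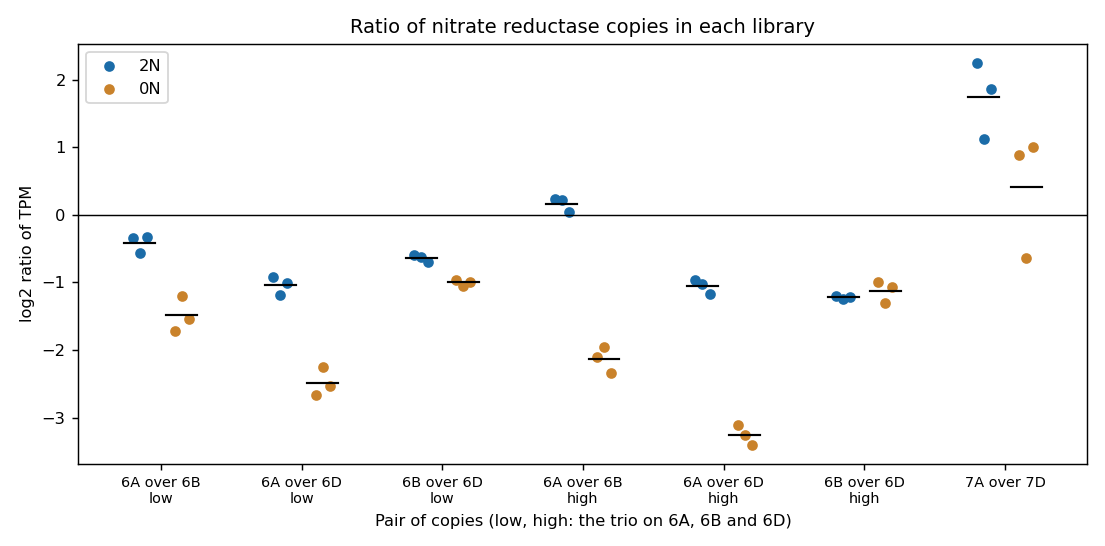
Log2 ratio of TPM between copies in each library, for the 3 pairs of each trio (low, high) and for 7A over 7D, with 2N in blue left of 0N in orange and black lines at the means. The 6A copies move up against 6B and 6D in 2N in both trios, while 6B over 6D in the high-numbered trio overlaps between the groups.

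Libraries of a group also differed among themselves. All 6 genes on 6A, 6B and 6D had their lowest 2N value in 2N-1, while TraesCS7A02G078500 had its highest 2N value there, 3.10 TPM. In 0N, every gene of the high-numbered trio was highest in 0N-1 and lowest in 0N-2, with sums of 53.5, 36.5 and 42.3 TPM in 0N-1, 0N-2 and 0N-3. The low-numbered trio was steadier over the same libraries, with sums of 42.5, 41.4 and 43.0 TPM. This left the low-numbered trio with 53.2% ± 0.72 of all nitrate reductase TPM in 2N and 49.2% ± 4.55 in 0N (SD, n = 3 each), with overlapping ranges.

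Nitrite, the product of nitrate reductase, is reduced to ammonium in plastids by nitrite reductase, which needs sirohaem. The 3 nitrite reductase genes all rose by edgeR, while 7.57% of all tested genes rose. The summed TPM of nitrite reductase was 1.65, 1.23 and 1.48 times that of nitrate reductase in the 2N libraries. In the 0N libraries it was 0.0825, 0.16 and 0.0574 times. Nitrate reductase was thus the more abundant of these transcripts in every 0N library and the less abundant in every 2N library. The 3 genes similar to uroporphyrinogen-III C-methyltransferase, which starts the sirohaem branch, rose to a summed 115 ± 6.34 TPM in 2N, against 3.18 ± 0.396 TPM in 0N (SD, n = 3 each). Of 5 tested genes similar to sirohydrochlorin ferrochelatase, which inserts the iron of sirohaem, 0 passed the threshold by edgeR or by DESeq2. At an unadjusted p under 0.05 by edgeR, 1 was lower. In the whole sirohaem list, edgeR called 3 rises and 0 falls among 8 tested genes, against 7.57% and 7.93% of all tested genes. By limma-trend on log2(TPM + 1) or log2(TPM + 0.1), 1 gene of the list fell. The median log2 fold change of this list was -0.10, against 0.00 over all tested genes.

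Genes for the molybdenum cofactor did not follow nitrate reductase in number. Of 18 tested genes of cofactor synthesis, 3 fell by edgeR and 0 rose (median log2 fold change -0.04), against 7.93% of all tested genes that fell. At an unadjusted p under 0.05, 1 gene was higher and 3 were lower. Their summed level was 188 ± 13.5 TPM in 2N and 198 ± 9.91 TPM in 0N (SD, n = 3 each). All 3 that fell were similar to molybdenum cofactor sulfurase, which prepares the cofactor for aldehyde oxidase and xanthine dehydrogenase and is not needed by nitrate reductase. Of these, TraesCS7A02G470400 had 7.21 ± 0.422 TPM in 2N and 9.97 ± 0.555 TPM in 0N (log2 fold change -0.36 ± 0.10 SE, adjusted p = 0.0235 by edgeR). These falls rested on single libraries and on the tool: DESeq2 called 0 of the 18 genes, edgeR called 0 without 2N-1, 2N-3 or 0N-2, and 1 without 0N-3. CNX1, whose protein inserts molybdenum into the cofactor, had 3 tested copies with a summed 27.6 ± 0.808 TPM in 2N and 30.0 ± 1.96 TPM in 0N, and 0 of them passed by edgeR, by DESeq2 or at an unadjusted p under 0.05.

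Molybdate carriers, in contrast, rose in 4 of 6 tested genes by edgeR (median log2 fold change 0.87), while 7.57% of all tested genes rose. The rises numbered 3 by DESeq2, with library totals, by limma-trend on TPM, with the replicate block and without any 1 library but 0N-3. All 3 genes similar to Molybdate transporter 2, which in Arabidopsis moves molybdate out of the vacuole, were among the 4. The other was similar to Molybdate transporter 1, a family that summed to 3.24 ± 0.466 TPM in 2N and 2.03 ± 0.801 TPM in 0N. TraesCS2D02G496500 had 76.37, 70.2 and 83.9 TPM in 2N, against 36.25, 32.04 and 34.64 TPM in 0N (log2 fold change 1.27 ± 0.10 SE, adjusted p = 8.05e-07 by edgeR). TraesCS2A02G496200 and TraesCS2B02G524500 rose by 0.92 ± 0.12 and 0.76 ± 0.11 on the log2 scale.

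Other enzymes with a molybdenum cofactor were not higher with nitrate. By edgeR as by DESeq2, 8 of the 28 tested fell while 0 rose (0 higher and 11 lower at an unadjusted p under 0.05), with a median log2 fold change of -0.22. Of all tested genes, 7.93% fell by edgeR. Genes similar to indole-3-acetaldehyde oxidase made up 7 of the 8, such as TraesCS5D02G436200 with 7.45 ± 0.585 TPM in 2N and 18.6 ± 1.75 TPM in 0N (log2 fold change -1.21 ± 0.10 SE, adjusted p = 1.56e-06 by edgeR). The eighth was similar to xanthine dehydrogenase. The 3 genes similar to sulphite oxidase, the molybdoenzyme closest to nitrate reductase in its cofactor domain, summed to 98.8 to 132 TPM in 2N and 105 to 140.2 TPM in 0N, with overlapping groups, and 0 of them passed by edgeR, by DESeq2 or at an unadjusted p under 0.05.

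The 14-3-3 proteins, which include the inhibitors of phosphorylated nitrate reductase, were abundant in both groups, at 1992 ± 52.0 TPM in 2N and 1937 ± 41.4 TPM in 0N in sum (SD, n = 3 each). Among 16 tested genes 0 rose by edgeR and 1 fell, TraesCS4B02G148900, with 2.01 ± 0.131 TPM in 2N and 3.75 ± 0.358 TPM in 0N. That fall was not called by DESeq2, which called 0 of the list, nor by edgeR without 2N-3 or 0N-2, and 4 genes of the list were higher at an unadjusted p under 0.05 by edgeR. Without 0N-2, 1 gene of the list rose. A single fall among 16 is near the 7.93% of all tested genes that fell. NLP proteins are transcription factors that bind promoters of nitrate-responsive genes, nitrate reductase among them in Arabidopsis. By edgeR, 3 of the 20 tested NLP genes rose while 7 fell, with a median log2 fold change of -0.22, against 7.57% of all tested genes that rose and 7.93% that fell. A single NLP gene of the 20 rose when 2N-2, 2N-3, 0N-2 or 0N-3 was left out, a share near that of all genes. Of the 8 genes similar to NLP1, 6 fell, such as TraesCS5A02G497800 with 3.42 ± 0.259 TPM in 2N and 6.85 ± 0.776 TPM in 0N. The single gene similar to NLP7, a nitrate sensor in Arabidopsis, rose by edgeR with a log2 fold change of 1.64. It averaged 2.24 ± 0.862 TPM in 2N (1.42, 3.14 and 2.17) and 0.77 ± 0.168 TPM in 0N (0.96, 0.71 and 0.64). Which NLP rise remained with a library left out is not given here.

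**Figure D5:**
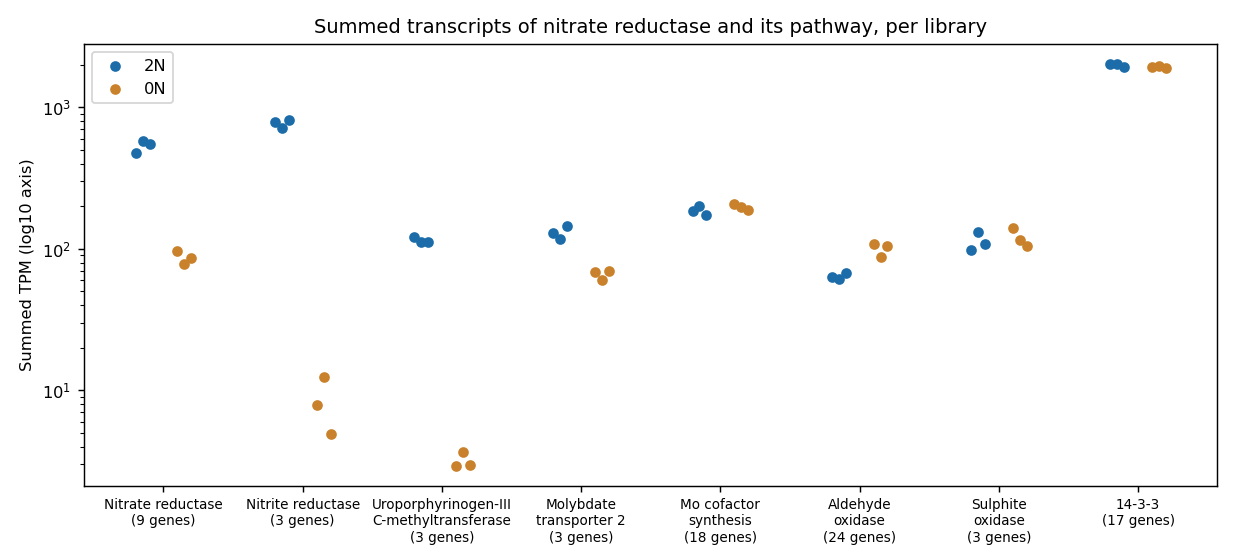
Summed TPM per library of nitrate reductase and families of its pathway, on a log10 axis, with 2N in blue left of 0N in orange. Whole lists are drawn for nitrite reductase, molybdenum cofactor synthesis and 14-3-3 proteins. From the sirohaem and molybdate transport lists, only uroporphyrinogen-III C-methyltransferase and Molybdate transporter 2 are drawn. Of the other molybdoenzymes, only indole-3-acetaldehyde oxidase and sulphite oxidase are drawn. Nitrite reductase sums to 772 ± 50.0 TPM in 2N and 8.44 ± 3.80 TPM in 0N, while cofactor synthesis, sulphite oxidase and 14-3-3 sums lie close together in both groups.

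Genes whose pattern over the 6 libraries was most like the summed nitrate reductase level were sought among 29795 other genes with a mean of at least 5 CPM, by Pearson's r of log2 CPM. The 2 groups dominate such an r, and 141 genes reached 0.99. The 5 highest, leaving out uninformative names, were TraesCS4D02G318400 and TraesCS5A02G490200, both similar to calcium-dependent protein kinase 7 (r = 0.9997 and 0.9989), TraesCS2A02G462600, similar to an F-box/kelch-repeat protein (0.9991), TraesCS3A02G400000, similar to fructokinase-3 (0.999), and TraesCS1B02G442300, similar to ketol-acid reductoisomerase (0.9987). Their log2 fold changes, 0.76 to 1.30, were smaller than those of the members. TraesCS4D02G318400, for example, had 15.07, 16.75 and 15.81 TPM in 2N, against 8.12, 7.23 and 7.84 TPM in 0N. Among the members themselves, r with the sum that contains them was 0.9646 for TraesCS7D02G073700 and 0.9901 to 0.999 for the other 7.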

How the data were processed

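Poly(A) RNA of 6 root libraries was sequenced, per the labels' protocols. The submitters' processing notes name HISAT and Bowtie2. Tool versions, genome build, annotation, library strand and counting program, all not given in the sources used here, were left unstated. The authors deposited expected counts per gene, which are not normalized, and 45.1% of the values were not whole (tolerance 1e-06). The authors also deposited TPM, FPKM and normalized read counts (a signal per gene), per the file headers; FPKM and the normalized counts were not used. Gene names are best UniProt matches found with diamond, per the deposited annotation column.

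Expected counts were rounded and filtered by filterByExpr (minimum count 10, minimum total 15), which kept 54313 of 78172 genes with a count. They were scaled by TMM and tested by edgeR's robust quasi-likelihood test over all these genes. SEs are the log2 fold change over the square root of F. Copy ratios were compared by exact permutation tests and, as an addition, by limma across pairs. Both fits were tested on simulated data. There the edgeR fit made 37 false calls over 53531 tested genes. Changes were set only in genes above a minimum count, so recovery for scarce genes was not tested. The fit recovered 36% of 1.5-fold, 66% of 2-fold and 98% of 4-fold changes. Changes of 2-fold or less can thus be missed, and a gene that was not called is not shown to be unchanged. The members, lists and rules were chosen with earlier results of these data known. The named genes were all members, up to 3 genes of each list with the smallest p past the threshold (for marker lists, the most abundant gene, whether it passed or not) and the 5 most like in pattern; the NLP7 gene and the family totals lie outside this rule and were named after their values were seen. Names that only resembled a list's search (GLOX enzymes, avenin-like and chaperonin-like proteins) were removed from the NLP and molybdoenzyme lists after reading the names. Root hair defective proteins belonged to the root list as first defined. They were removed from it too, which left the Casparian strip membrane proteins (median log2 fold change 0.63 over 6 tested genes). As searched, the NLP list had 3 rises and 8 falls among 27 tested genes. The root list as searched had 4 rises and 0 falls among 12, with a median log2 fold change of 0.25. Replicate numbers were not used to pair the libraries in the main fit. Python 3.11.15 was used with scipy 1.17.1 and matplotlib 3.10.9, and R 4.3.3 with DESeq2 1.42.0, limma 3.58.1 and edgeR 4.0.16.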

Additional observations from a re-analysis of the deposited data

How the results depend on the processing

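All 8 tested genes rose under each of the 15 other settings (library totals, RLE factors, no filter, a stricter filter, rounding down, DESeq2, limma-trend on TPM, the replicate block and each library left out), and 8 nitrate reductase genes were called in each. Log2(TPM + 1) lowered the log2 fold change of TraesCS7A02G078500 to 1.64 and that of TraesCS7D02G073700 to 0.68, as a pseudocount does for scarce genes. Without a filter, TraesCS4A02G376700 was tested and did not pass (log2 fold change 1.88 ± 1.03, adjusted p = 0.293 by edgeR). The log2 ratio of summed CPM was 2.74, and 2.63 to 2.82 over the other settings, with 2.69 to 2.82 when a library was left out. In the fit over pairs of copies, the 5 called pairs on 6A, 6B and 6D were called with each library left out and with the replicate block. Samples sharing a number had deviations correlating at -0.00519, -0.106 and 0.0256, so the block was not used; with it, 7299 genes passed in place of 8415 in all. Rises over all genes were 4109, and 2502 and 2465 by limma-trend on log2(TPM + 1) and log2(TPM + 0.1); with a library left out they ranged from 2622 to 4285, the lowest without 0N replicate 1, followed by 2639 without 2N replicate 3. With library totals 2920 genes rose and 6208 fell, against 4306 falls. No ratio of NAD(P)H-type to NADH-type entries could be formed, since 0 members matched the first type. Depth limits the genes on 7A, 7D and 4A. Counts of the pathway lists were recomputed under the same settings after the data were seen. The rises of nitrite reductase (3) and of sirohaem synthesis (3) were the same in each, whereas NLP rises varied. NLP rises numbered 1 with the replicate block and with limma-trend on log2(TPM + 1) or log2(TPM + 0.1). They numbered 2 with library totals and without a filter, and 3 with RLE factors, the stricter filter, rounding down and DESeq2.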
